A study of Mus musculus with 8 samples.

Results

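Collagen genes were examined on 8 one-colour Agilent mouse arrays hybridised with RNA of C2C12, an immortal mouse myoblast line. The members were chosen by name, as every probe of the array whose gene symbol was Col followed by a type number, the letter a and a chain number. This rule used no measured value. It found 91 probes, on 109 spots, for 44 genes out of 37074 gene names in the array design. The 44 genes were divided by textbook class into 11 fibrillar, 6 basement membrane and 27 other collagens. The basement membrane class held type IV only, so Col18a1 was counted among the others.

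All 8 cultures were proliferating C2C12 cells at passage 10, transfected through Lipofectamine 2000 with LNA GapmeRs, antisense oligonucleotides that recruit RNase H to the RNA they pair with. The 4 cultures called silenced received the GapmeRs Pvt1_1 and Pvt1_3 against the long non-coding RNA Pvt1, and the 4 called control received negative control GapmeRs. The labels name a single cell line in proliferation, so neither myotubes nor muscle tissue were part of the design. Of 12 hepatocyte markers, however, 9 had a probe well above background on at least 3 silenced arrays and on 0 control arrays, and their values are given beside Col18a1. The comparison asked which collagen transcripts differed once Pvt1 had been knocked down. The oligonucleotides are shown because they define the silenced group:
Pvt1_1: accgtagtagagttaa
Pvt1_3: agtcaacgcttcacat

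Collagens are the main structural proteins of the extracellular matrix. Chains rich in Gly-X-Y repeats wind around each other into a triple helix, and glycine is needed at regular steps because no larger residue fits the core. Fibrillar collagens such as types I, III and V pack into striated fibrils, type IV collagen forms the sheet-like network of basement membranes, and type VI collagen forms beaded filaments next to the basement membrane of muscle fibres. In skeletal muscle most fibrillar collagen is attributed to fibroblasts and fibro-adipogenic cells, while myogenic cells also make matrix of their own.

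The repeat could be read in the probes themselves. A run of at least 5 glycine codons spaced by 9 bases occurred in 6 of the 91 collagen probes and in 16 of all 56605 probes (0.0283%). The pair of these probes that entered the test is shown, 5′ to 3′, with the glycine codons in capitals. The Col6a3 probe mapped to chr1:92689602-92690594 and the Col22a1 probe to chr15:71767749-71768433 of mouse build mm9, both on the minus strand. These spans of 993 and 685 bases, for 60-base probes, show that each crossed a splice junction.
Col6a3: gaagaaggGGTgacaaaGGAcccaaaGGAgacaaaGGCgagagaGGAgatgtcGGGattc
Col22a1: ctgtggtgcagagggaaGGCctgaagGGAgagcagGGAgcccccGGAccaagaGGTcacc

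Probe values below are log2 quantile-normalised intensity, and a change is the mean of the silenced cultures minus that of the controls on this log2 scale. Levels of different probes were not compared. The targeted transcript was checked first. Its brightest tested probe (chr15:62081020-62081079) read 9.65, 9.79, 10.31 and 9.70 in control cultures 1 to 4, and 7.09, 6.69, 7.85 and 6.39 in silenced cultures 1 to 4. The groups were well apart, with a change of -2.86 ± 0.32 (SE, limma adjusted p = 0.000682), in the direction of the labels.

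On each array, 51.6 to 62.5% of spots were positive and significant against background, and 36.8 to 45.4% were well above it. The lower end of both ranges was silenced culture 4, the dimmest array. Control culture 3 had the lowest mean correlation with the other arrays of its group, 0.960 where the others had 0.980 to 0.986. Across all 28649 tested probes the median change was -0.19, and 1373 probes were called higher against 5269 lower, so that 79.3% of the calls were lower. After cyclic loess normalisation the median was 0.02 and the calls were 5416 higher and 5258 lower (49.3% lower). Changes of collagens are therefore given with this shift in view.

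Of the 44 collagen genes, 23 had at least 1 tested probe (36 probes in all), and 21 had none. In silenced cells 9 of the 36 probes were called lower (25%), where 18.4% of all tested probes were. There were 2 collagen probes called higher (5.56%), against 4.79% of all probes. By the brightest probe of each gene, 7 of 23 genes were lower (30.4%), where 14.0% of all genes were, and 1 was higher (4.35%), where 5.99% were. The median change over the 23 collagen genes was -0.29, beside -0.09 over the brightest probes of all 19360 tested genes. With 75th percentile scaling these medians were 0.15 and 0.29, so the sign turned, and after cyclic loess they were -0.15 and 0.11. The control and silenced values did not overlap in any of the 11 called collagen probes, 9 of them lower and 2 higher, and overlapped in all 25 others. Among all tested probes 22.6% were lower and 5.61% higher without overlap. After cyclic loess 8 collagen probes were called lower, where 18.4% of all probes were, and 7 higher, where 18.9% were.

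**Figure D1:**
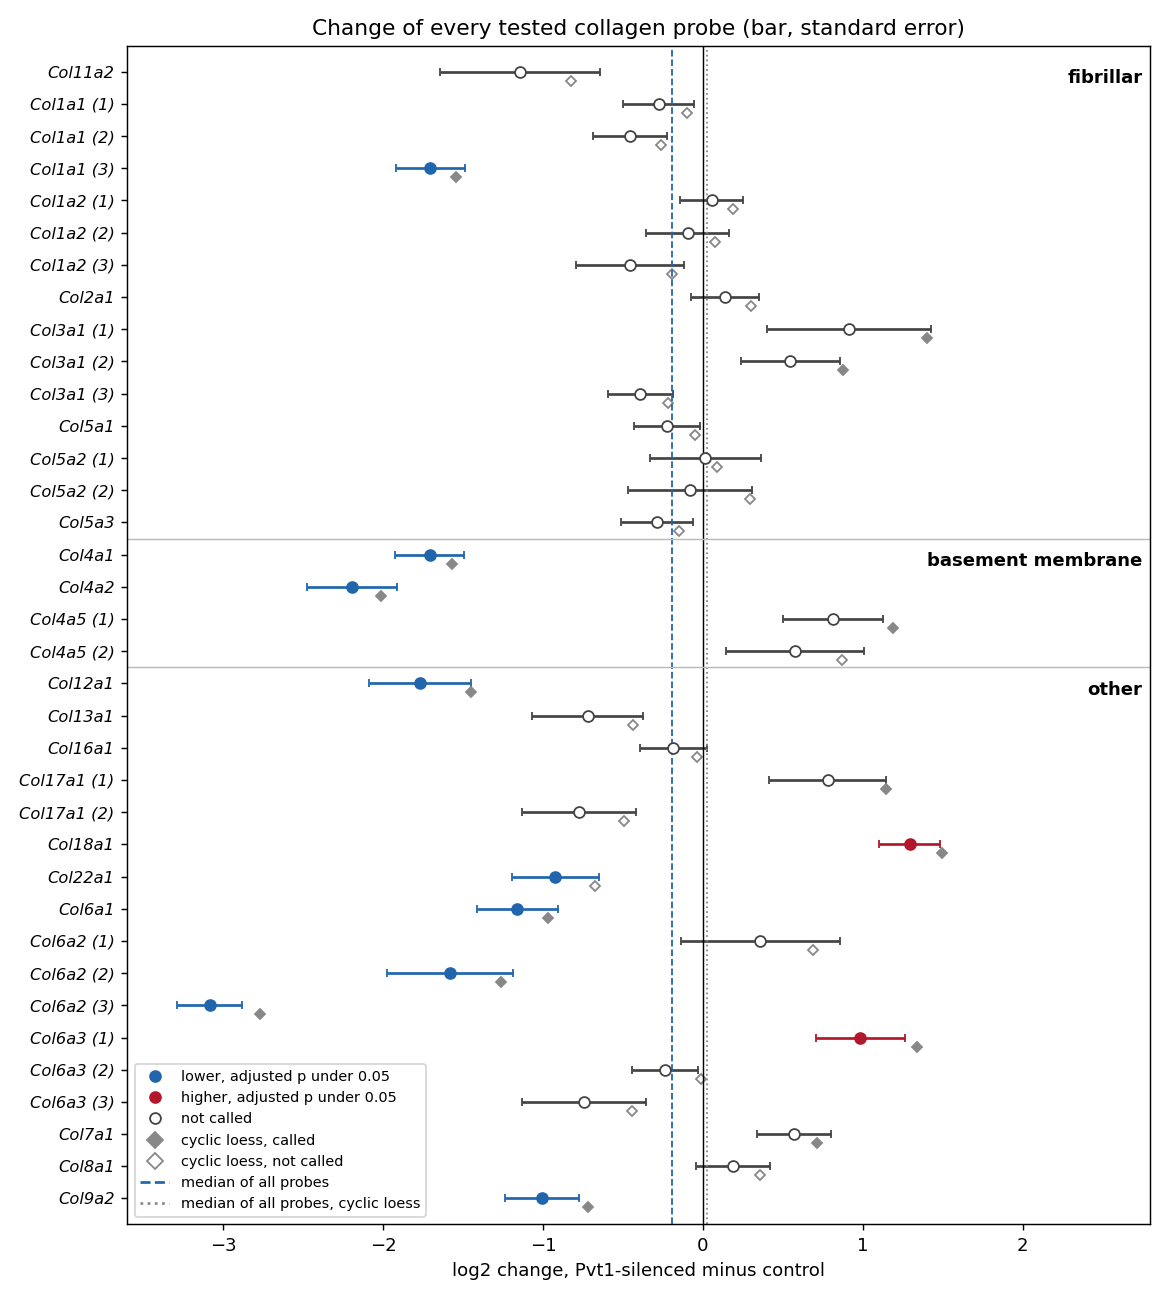
Change of each of the 36 tested collagen probes on the log2 scale, silenced minus control, by class (circles, quantile-normalised values with the standard error as bar; diamonds, cyclic loess; filled, adjusted p under 0.05). The Col6a2 probe at -3.08 lies farthest to the left and the Col18a1 probe at 1.29 farthest to the right, while most fibrillar probes lie near the median of all probes, -0.19.

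The type IV collagens, which made up the basement membrane class, gave a divided picture. Col4a1 and Col4a2 encode the chains of the most widespread type IV network, and both fell in silenced cells. Col4a5, which encodes a chain of the type IV networks of kidney and other specialised basement membranes, smooth muscle among them, was not called and its change was positive. Col4a3, Col4a4 and Col4a6 had no tested probe.

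Col4a1 (chr8:11199009-11199068, mm9, minus strand, accession NM_009931) read 12.08, 12.45, 12.25 and 12.30 in the controls and 10.66, 10.97, 10.29 and 10.32 in the silenced cultures. Its change was -1.71 ± 0.22 (SE, limma adjusted p = 0.00106), which left 30.6% of the control level. Col4a2 (chr8:11448840-11448899, plus strand, NM_009932) read 12.09, 12.29, 11.70 and 12.05 in the controls and 9.97, 10.40, 9.84 and 9.14 in the silenced cultures. Its change was -2.20 ± 0.28 (limma adjusted p = 0.00108), or 21.8% of control. All 4 silenced cultures lay below all 4 controls for both genes, by more than the spread within either group.

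Col4a5 (chrX:138123547-138123606, plus strand, NM_001163155) read 7.41, 7.78, 6.94 and 7.96 in the controls and 8.52, 8.37, 8.82 and 7.64 in the silenced cultures. Silenced culture 4 lay inside the control range and the other 3 above it. The change was 0.81 ± 0.31 (limma adjusted p = 0.0889). After cyclic loess it was 1.19 and was called higher (adjusted p = 0.00515). A second Col4a5 probe, dimmer and 552 bases further 5′, changed by 0.58 ± 0.43 and was not called.

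Col4a1 and Col4a2 are a head-to-head gene pair. In the RefSeq promoter windows of build GRCm38.p6, from 250 bases before to 50 after each annotated start, their starts lay 21 bases apart on opposite strands, and the windows shared 78 bases (chr8:11312777-11312854). Both windows are printed 5′ to 3′ on their own strand, because the 2 genes fell together, with matches to the CCAAT box (letters CCAAT, either strand) and the GC box (GGGCGG, either strand) in capitals. The Col4a1 window is chr8:11312777-11313076 on the minus strand, and the Col4a2 window is chr8:11312555-11312854 on the plus strand.
Col4a1: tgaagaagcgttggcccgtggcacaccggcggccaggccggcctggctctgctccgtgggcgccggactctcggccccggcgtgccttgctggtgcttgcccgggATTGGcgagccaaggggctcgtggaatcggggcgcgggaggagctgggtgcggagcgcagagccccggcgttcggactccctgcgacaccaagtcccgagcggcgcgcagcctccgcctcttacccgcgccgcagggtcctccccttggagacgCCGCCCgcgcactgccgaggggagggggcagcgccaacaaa
Col4a2: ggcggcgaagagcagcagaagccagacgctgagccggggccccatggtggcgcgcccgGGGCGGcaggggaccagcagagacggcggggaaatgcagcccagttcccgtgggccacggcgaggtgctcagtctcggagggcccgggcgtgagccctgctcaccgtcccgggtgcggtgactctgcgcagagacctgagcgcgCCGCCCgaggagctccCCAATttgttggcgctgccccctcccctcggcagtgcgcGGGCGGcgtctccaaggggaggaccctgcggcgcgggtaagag

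The Col4a1 window held 1 CCAAT box and 1 GC box, and the Col4a2 window held 1 CCAAT box and 3 GC boxes. RefSeq windows were found for 35 of the 44 collagen genes (38 windows). The CCAAT letters occurred in 34.2% of these windows and in 37.4% of all 32851 windows. The GC box occurred in 60.5% of collagen windows and 35.7% of all, and in 5 of the 6 windows of collagen genes called lower. These 6 windows stood for 5 of the 7 lower genes, with Col6a2 present in 2 of them, and a GC box in the overlap of the Col4a1 and Col4a2 windows was counted for both. TATAAA occurred in 13.2% and 13.6%, and in 0 of those 6. These are counts of letters and do not locate a bound factor.

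Col6a1, Col6a2 and Col6a3 encode the common chains of type VI collagen, whose loss causes inherited muscle disease. Col6a1 and Col6a2 fell in silenced cells, while Col6a3 was not called by its brightest probe. Col6a2 had the most negative change of all 36 tested collagen probes.

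Col6a2 (chr10:76058931-76058990, minus strand, NM_146007) read 10.28, 10.33, 10.64 and 10.44 in the controls and 7.55, 7.54, 7.21 and 7.04 in the silenced cultures. The change was -3.08 ± 0.20 (SE, limma adjusted p = 7.98e-05), or 11.8% of control. The SD was 0.16 in the controls and 0.25 in the silenced cultures, so the groups were apart by far more than their spread. A dimmer Col6a2 probe 2158 bases further 5′ was also called lower (limma adjusted p = 0.0188). With the slide row as a block that dimmer probe was not called (limma adjusted p = 0.0875). It was well above background on 4 control arrays and on 0 silenced arrays, so its difference is a bound, at least 1.46-fold lower. The Col6a2 probe lying furthest 5′ changed by 0.36 ± 0.50 and was not called.

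Col6a1 (chr10:76171538-76171597, minus strand, NM_009933) read 12.25, 12.38, 12.50 and 12.29 in the controls and 11.46, 11.44 and 10.68 in silenced cultures 1, 3 and 4. The spot of silenced culture 2 carried an outlier flag and was left out of the fit. The change was -1.16 ± 0.25 (limma adjusted p = 0.0129), or 44.7% of control, with no overlap of the groups. With the slide row as a block Col6a1 was not called (limma adjusted p = 0.0624). Col6a3 (chr1:92663663-92663722, minus strand, NM_001243008) read 13.60, 13.72, 13.75 and 13.84 in the controls and 13.72, 13.76, 13.31 and 13.16 in the silenced cultures. Its groups overlapped, and the change was -0.24 ± 0.21 (limma adjusted p = 0.447). With each array scaled to its 75th percentile the sign turned, to 0.33, and the gene was still not called.

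The Col6a3 probes were called differently. The splice-crossing probe printed above changed by -0.74 ± 0.39 and was not called. A contiguous probe at chr1:92690484-92690543, within the genomic span of the former and assigned to transcript ENSMUST00000145750, was called higher. It read 7.02, 7.20, 8.19 and 7.59 in the controls and 8.37, 8.23, 8.80 and 8.52 in the silenced cultures, a change of 0.98 ± 0.28 (limma adjusted p = 0.0311), but was not called with the slide row as a block (adjusted p = 0.125). It was not compared with the splice-crossing probe, and which transcript form it read was not tested.

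**Figure D2:**
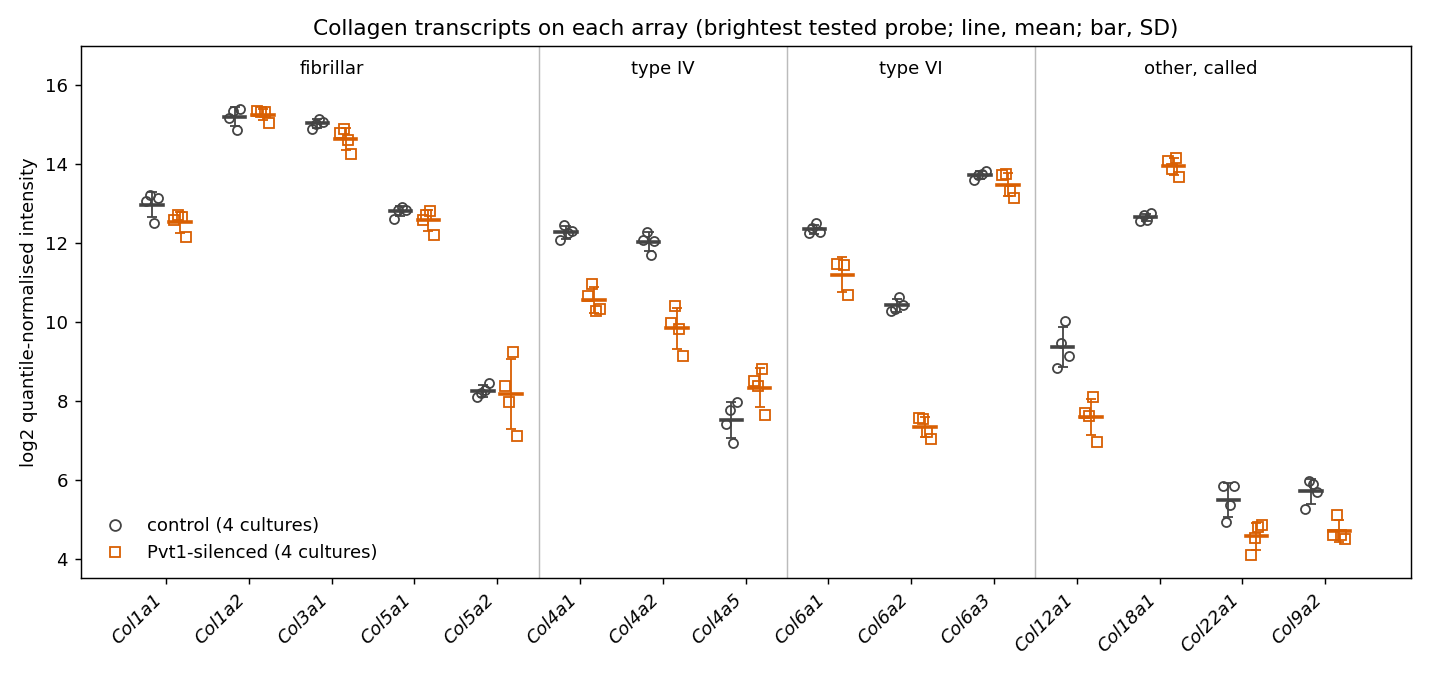
log2 quantile-normalised intensity on each array for the brightest tested probe of 15 collagen genes (circles, 4 control cultures; squares, 4 silenced cultures; line, mean; bar, SD). The groups are apart for Col4a1, Col4a2, Col6a1, Col6a2 and Col12a1, which were lower in silenced cells, and for Col18a1, which was higher. Those of Col1a1, Col1a2, Col3a1, Col5a1, Col5a2, Col4a5 and Col6a3 overlap.

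No fibrillar collagen gene was called by its brightest probe, out of 8 tested, where 14.0% of all genes were called lower and 5.99% higher, and 0 of 8 is near these shares. Of 15 fibrillar probes 1 was called, lower, where 18.4% of all probes were called lower and 4.79% higher. The median change over the 8 genes was -0.26, beside -0.09 over the brightest probes of all genes. It was -0.098 after cyclic loess, and 0.20 with 75th percentile scaling, where the sign turned. Type I collagen, the main protein of tendon, bone and fibrous tissue, is made from the products of Col1a1 and Col1a2. Col1a2 (chr6:4490619-4490678, plus strand, NM_007743) read 15.18, 15.36, 14.88 and 15.39 in the controls and 15.35, 15.32, 15.32 and 15.05 in the silenced cultures. The change was 0.06 ± 0.20 (limma adjusted p = 0.874), well inside the spread of the cultures. With 75th percentile scaling, where the median of all probes was 0.16, its change was 0.62 and was called higher. The other Col1a2 probes changed by -0.10 and -0.45 and were not called.

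The Col1a1 probes were called differently, and the test of their difference is given further on. The brightest probe (chr11:94813075-94813134, plus strand, NM_007742, 10 spots) read 13.06, 13.21, 12.51 and 13.14 in the controls and 12.58, 12.72, 12.66 and 12.15 in the silenced cultures. Control culture 3 lay among the silenced values, and the change was -0.45 ± 0.23 (limma adjusted p = 0.189). A probe 40 bases further 3′, also on 10 spots, changed by -0.28 ± 0.22 and was not called. The probe nearest the 3′ end (chr11:94814188-94814247), at position 5761 of ENSMUST00000001547, read 12.15, 12.38, 11.97 and 12.27 in the controls and 10.54, 10.66, 10.72 and 10.03 in the silenced cultures. All its silenced values lay below all controls, with a change of -1.70 ± 0.22 (limma adjusted p = 0.00108).

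Col3a1 encodes the chain of type III collagen, which accompanies type I in extensible tissue. Its brightest probe (chr1:45405589-45405648, plus strand, NM_009930) read 14.89, 15.03, 15.16 and 15.07 in the controls and 14.80, 14.90, 14.62 and 14.26 in the silenced cultures. The change was -0.39 ± 0.20 (limma adjusted p = 0.199). Further 5′, at positions 1545 and 3060 of other transcripts, Col3a1 probes changed by 0.55 and 0.91 and were not called. After cyclic loess both were called higher, with changes of 0.88 and 1.40.

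Type V collagen sits within type I fibrils and limits their width. Col5a1 (chr2:27894595-27894654, plus strand, NM_015734) read 12.62, 12.85, 12.92 and 12.84 in the controls and 12.59, 12.71, 12.83 and 12.21 in the silenced cultures, a change of -0.22 ± 0.20 (limma adjusted p = 0.468). Col5a2 (chr1:45431204-45431263, minus strand, NM_007737) read 8.09, 8.19, 8.28 and 8.45 in the controls and 8.37, 7.97, 9.24 and 7.11 in the silenced cultures. Its silenced values spread to both sides of the controls, and the change was -0.08 ± 0.39 (limma adjusted p = 0.907). The signs of the Col1a1, Col3a1 and Col5a1 changes turned positive with 75th percentile scaling, and that of Col5a2 with that scaling, cyclic loess and the authors' table, with none of the 4 called.

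The remaining called genes belong to the other collagens. Col12a1 encodes type XII collagen, a fibril-associated collagen at the surface of type I fibrils. It read 8.83, 9.47, 10.02 and 9.13 in the controls and 7.69, 7.63, 8.09 and 6.97 in the silenced cultures (chr9:79446895-79446954, minus strand, NM_001290308). The change was -1.77 ± 0.32 (limma adjusted p = 0.0046), or 29.3% of control, with no overlap. Col9a2 and Col22a1, also fibril-associated, passed the test in the lower direction. Col9a2 (chr4:120727698-120727757) read 5.27, 5.97, 5.90 and 5.70 in the controls and 4.60, 5.11, 4.60 and 4.49 in the silenced cultures (limma adjusted p = 0.0137). Col22a1 read 5.83, 4.93, 5.35 and 5.84 in the controls and 4.10, 4.51, 4.81 and 4.85 in the silenced cultures (limma adjusted p = 0.0373). Both probes were well above background on 0 of 8 arrays, so no fold is given for either. Col22a1 lost its call in 13 of 20 alternatives and Col9a2 in 6 of 20.

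Col18a1 was the single collagen gene called higher by its brightest probe. It encodes type XVIII collagen, a basement membrane heparan sulphate proteoglycan whose end fragment is endostatin. The probe (chr10:76515820-76515879, minus strand, NM_009929) read 12.57, 12.72, 12.59 and 12.75 in the controls and 14.07, 13.88, 14.16 and 13.69 in the silenced cultures. The change was 1.29 ± 0.19 (SE, limma adjusted p = 0.00192), or 245% of control, and every silenced culture lay above every control. Hepatocytes are a known source of this collagen. Of a list of 12 hepatocyte markers, 9 (Ahsg, Alb, Apoa2, Apoc3, Fgb, Mup1, Serpina1a, Trf and Ttr) had a probe well above background on 0 control arrays and on at least 3 silenced arrays. Of the 3 tested by their brightest probe, Cyp2e1 was called higher (1.14) and 0 lower, and their median change was -0.15. Apoa2 and Apoc3, also among the 9, were not called by that probe, and their changes were negative. The summed level of the whole list, as log2 without masking of dim spots, ranged from 9.93 to 10.82 in controls and from 12.34 to 12.68 in silenced cultures, and Apoa1 and Fga were well above background nowhere. The part of these transcripts in the Col18a1 result was not tested.

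The other marker lists were read in the same way, beside 14.0% of all genes called lower and 5.99% higher. Of 7 myoblast markers 3 (Des, Cdh15 and Myod1) were lower, 0 were higher, and the summed level was 17.09 to 17.37 in controls and 16.63 to 16.98 in silenced cultures. Myf5 of this list was well above background on no array. Of 8 fibroblast and fibro-adipogenic markers, 5 were tested. Dcn, a small proteoglycan that binds collagen fibrils, changed by 2.49 and Pdgfra by 0.73, both called higher, and Pdgfrb by -1.80, called lower. The summed levels of this list overlapped, at 14.70 to 14.84 and 14.35 to 15.13, and Lum, Tcf21 and Thy1 were well above background on no array. Of 5 macrophage markers on the array, Cd68 was higher (1.84) and Csf1r lower (-1.12), with summed levels of 10.78 to 10.87 and 11.92 to 12.72, and Adgre1 and Lyz2 were well above background nowhere. None of 5 endothelial markers was well above background on any array, and their summed levels overlapped, at 6.38 to 6.79 and 6.37 to 6.84. With the slide row as a block, Cdh15, Pdgfra, Csf1r and Cyp2e1 were not called (adjusted p of 0.0748, 0.172, 0.112 and 0.109). In such bulk RNA, fewer cells of a type and less RNA per cell cannot be told apart, and the part of these lists in the collagen results was not tested.

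The other 8 tested genes were Col2a1, Col5a3, Col7a1, Col8a1, Col11a2, Col13a1, Col16a1 and Col17a1. None was called, with changes from -1.14 for Col11a2 to 0.78 for Col17a1 and limma adjusted p of at least 0.106. After cyclic loess Col7a1, whose product forms anchoring fibrils (0.72), and Col17a1, a hemidesmosome collagen (1.14), were called higher. A dimmer Col17a1 probe, 560 bases further 5′ on the same transcript, read lower in silenced than in control cultures on average and was called under neither normalisation. It was well above background on 3 control and 0 silenced arrays, and the bound on its fold was under 1, so none is given. Col4a5 and Col18a1 were the others called higher by their brightest probe under that setting.

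Whether chains of a single collagen type changed unequally was tested on the difference between their brightest probes within each array, which a shift of a whole array does not move. Other tested probes changed by -0.28 and -1.70 for Col1a1 and by -0.74 and 0.98 for Col6a3. In Col6a2 another probe was also called lower, and the probe furthest 5′ changed by 0.36. Pairs with these other probes were not tested. An exact two-sided permutation test over the cultures compared 10 pairs, and p-values were adjusted over these 10. The smallest p that the design allowed was 0.0286, which became 0.0476 after adjustment. Of the 10 pairs 6 tied at it, and the adjusted value rests on that number. Pairs that share a chain are not independent. The change of Col6a3 was 2.85 above that of Col6a2 and 0.83 above that of Col6a1, and that of Col6a2 differed from that of Col6a1 by -1.99 (each exact adjusted p = 0.0476). The pairs with Col6a1 rested on 3 silenced cultures. The change of Col4a5 was 2.52 above that of Col4a1 and 3.01 above that of Col4a2, also at an exact adjusted p of 0.0476. That of Col1a2 lay 0.51 above that of Col1a1 at the same exact adjusted p. The change of Col4a2 differed from that of Col4a1 by -0.49 with an exact adjusted p of 0.0816, and the 3 type V pairs differed by -0.20 to 0.14 (exact adjusted p = 0.743 for each). The test took the 8 arrays as exchangeable, although the slide row was nearly split by group, with 3 controls and 1 silenced culture in the upper row. Regrouping within rows allows 16 splits (12 for pairs with Col6a1) and a smallest p of 0.0625 (0.0833), so these p-values do not separate group from row. Each of the 6 pairs that passed had differences of the same sign in both rows. Their sizes were smallest for Col1a2 against Col1a1, at 0.55 in the upper and 0.47 in the lower row, and that of Col6a2 from Col6a1 was negative in both, at -1.95 and -2.08.

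**Figure D3:**
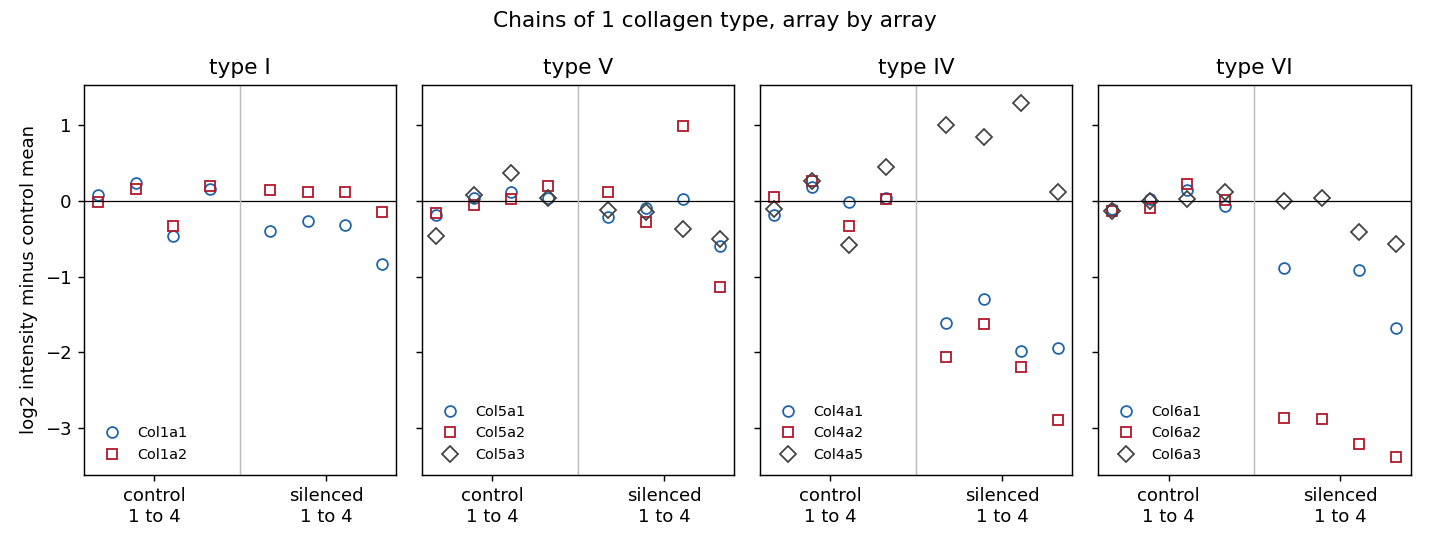
log2 intensity of each culture minus the control mean of the same probe, for the chains of 4 collagen types (left of each grey line, control cultures 1 to 4; right, silenced cultures 1 to 4). Col6a2 lies furthest down in the silenced cultures of type VI, Col4a1 and Col4a2 lie below and Col4a5 mostly above 0 in type IV, and the chains of type V stay near 0 except Col5a2 in silenced cultures 3 and 4. The Col6a1 point of silenced culture 2 is missing because its spot was flagged.

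The same test, with the same limit by row, was run on 8 pairs of probes of a single gene, both probes well above background on all 8 arrays. In Col1a1, the change of the probe nearest the 3′ end differed from those of the others by -1.25 and -1.43, with no overlap between groups (each exact p = 0.0286, adjusted 0.0571 over the 8 pairs). The change of the more 3′ probe differed from that of the other by -0.94 in the Col3a1 pair and by -1.22 in the Col6a3 pair, at the same exact p. No pair of probes passed after adjustment, the smallest adjusted p being 0.0571. The same exact p passed among the chain pairs because a larger share of them tied at it. The families are therefore not contrasted by which passed. Over all 18 pairs of tested probes of 8 collagen genes, the 3′ probe had the more negative change in 9 and the 5′ probe in 9.

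The 8 arrays shared 1 slide and 1 scan, but control cultures 1 to 3 and silenced culture 1 lay in the upper row and the others in the lower row. With the row as a block, Col4a1, Col4a2, Col6a2, Col12a1 and Col18a1 were still called, as were the dim Col22a1 and the 3′ Col1a1 probe. Col6a1 was not (change -1.06, limma adjusted p = 0.0624), nor were the dim Col9a2 (adjusted p = 0.0582), the dimmer of the lower Col6a2 probes (adjusted p = 0.0875) and the Col6a3 probe that had been called higher (0.92, adjusted p = 0.125). Within the upper row the changes of Col4a1, Col4a2, Col6a1, Col6a2, Col12a1 and Col18a1 were -1.60, -2.05, -0.91, -2.86, -1.75 and 1.45. Within the lower row they were -1.78, -2.26, -1.23, -3.17, -1.57 and 1.16, so each kept its direction in both rows.

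The 21 genes without a tested probe were Col4a3, Col4a4, Col4a6, Col6a4, Col6a5, Col6a6, Col8a2, Col9a1, Col9a3, Col10a1, Col11a1, Col14a1, Col15a1, Col19a1, Col20a1, Col23a1, Col24a1, Col25a1, Col26a1, Col27a1 and Col28a1. For 16 of them no probe was well above background on any array. Col14a1 and Col24a1 were so on 1 control array, and Col4a4, Col11a1 and Col28a1 on 1 silenced array. Of the 21 genes, 18 were positive and significant on at least 1 array, though none on 3 arrays of both groups, and 3 (Col6a6, Col10a1 and Col15a1) on none. Col14a1, a fibril-associated collagen, was positive on 4 control arrays and 1 silenced array. Without masking of dim spots it was the single gene of these 21 to be called, lower in silenced cells (limma adjusted p = 0.00289), and no fold is given because it was well above background on 1 control array alone. Low signal does not show that the other transcripts were absent.

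Genes that act on collagens were described by role, from 6 lists that held 58 genes on the array, of which 50 were tested. In all 11 of the 50 were lower (22%, where 14.0% of all genes were) and 1 higher (2%, where 5.99% were), and their median change was -0.14, or -0.24 without control culture 3 and, with the sign turned, 0.33 with 75th percentile scaling. After cyclic loess 11 were lower, where 14.3% of all genes were, and 10 higher, where 22.1% were, with a median of 0.09, the sign turned as well. Over all 85 tested probes of these genes 26 were lower (30.6%, where 18.4% of all probes were) and 1 higher (1.18%, where 4.79% were). Of the 35 probes that were not the brightest of their gene 15 were lower (1 of them on the strand opposite to its gene) and 0 higher, where 27.5% of all such dimmer probes were lower and 2.29% higher. For 8 genes a dimmer probe on the gene's strand was lower while the brightest was not called. Of the 12 called genes, 7 lost their call with the slide row as a block (Crtap, P4hb, Mia3, Sec13, Loxl3, Itga10 and Mmp2), while P4ha3, Plod3, Loxl1, Ddr2 and Mmp14 were still called.

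Among enzymes that hydroxylate and glycosylate collagen chains, 4 of 14 tested genes were lower and 0 higher, against 14.0% and 5.99% of all genes. Their median change was -0.65, and -0.42 after cyclic loess and -0.22 with 75th percentile scaling. P4ha3, a catalytic subunit of prolyl 4-hydroxylase, changed by -2.17 ± 0.37 (limma adjusted p = 0.00363). P4hb, the partner subunit and protein disulphide isomerase, changed by -1.03 ± 0.24 (limma adjusted p = 0.0129). Its call ended with the slide row (adjusted p = 0.0664) and with 75th percentile scaling (-0.47, adjusted p = 0.0602). The others lower were Plod3 and Crtap, and Crtap lost its call in 14 of 19 alternatives. Dimmer probes of Colgalt1, P3h1 and P3h4 were called lower, although the brightest probes of these genes were not called. That of P3h4, at an adjusted p of 0.0494, lost its call with the slide row (0.153), the replicate block (0.110), cyclic loess (0.0710) and 75th percentile scaling (0.381).

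Of 13 folding and export genes 2 were lower (15.4%, near the 14.0% of all genes). These were Sec13 (-0.93), a coat protein of export vesicles, and Mia3 (-0.74), which loads procollagen into them. With the slide row neither was called (adjusted p of 0.0701 for Sec13 and 0.154 for Mia3), and Mia3 was also not called with the replicate block (adjusted p = 0.0896) or with 75th percentile scaling (-0.24, adjusted p = 0.289). Serpinh1, the collagen chaperone HSP47, changed by -0.01 by its brightest probe and was not called. That value rested on control culture 3, which read 12.86 where the other controls read 14.28 to 14.53, and without it the change was -0.41 (adjusted p = 0.192). A second probe carrying this symbol (AK205936) was called lower, but it lies on the plus strand, opposite to the gene, and is not read as Serpinh1 here. The median change of the list was 0.28, and 0.01 without control culture 3, 0.55 after cyclic loess and 0.57 with 75th percentile scaling. A pair of dimmer Ctage5 probes and a dimmer Sec31a probe were called lower. The groups overlapped for the latter, whose call ended with the slide row (adjusted p = 0.0893), cyclic loess (0.0848) and 75th percentile scaling (0.0856), and 1 of the Ctage5 calls ended with the slide row (0.0881).

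Propeptide cleavage genes, among them Bmp1 and Pcolce, were called in 0 of 6 cases by their brightest probe, which is near the 14.0% lower and 5.99% higher of all genes. Their median change was 0.10, and 0.30 after cyclic loess and 0.50 with 75th percentile scaling. The brightest Bmp1 probe changed by 0.44 (limma adjusted p = 0.184), while a dimmer probe further 5′ on the same transcript, well above background on all 8 arrays, changed by -1.65 and was called lower (limma adjusted p = 0.00209, and 0.0143 with the slide row). Of 5 crosslinking genes, with a list median of -0.79 (-0.62 after cyclic loess and -0.34 with 75th percentile scaling), 2 lysyl oxidases were lower, where 14.0% of all genes were, Loxl1 by -1.34 ± 0.20 (limma adjusted p = 0.00205) and Loxl3 by -1.12 ± 0.28 (limma adjusted p = 0.0181). The Loxl3 call ended with the slide row (adjusted p = 0.0895). A dimmer probe of Lox was lower, its brightest probe not being called.

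Of 9 collagen receptors 1 was lower and 1 higher (11.1% each, where 14.0% and 5.99% of all genes were). Their median change was -0.38, and -0.10 after cyclic loess and 0.12 with 75th percentile scaling, where the sign turned. The collagen-activated tyrosine kinase Ddr2 was lower (-1.47 ± 0.21, limma adjusted p = 0.00187) and the integrin chain Itga10 higher (1.52 ± 0.36, limma adjusted p = 0.0151). With the slide row Itga10 was not called (adjusted p = 0.0595). A dimmer probe of the integrin chain Itgb1 was lower, while its brightest was not called. Of 3 tested collagen-degrading proteases 2 were lower, where 14.0% of all genes were, the membrane-bound Mmp14 (-2.42 ± 0.30, limma adjusted p = 0.000988) and the gelatinase Mmp2 (-0.88 ± 0.23, limma adjusted p = 0.0217), with a list median of -0.88 (-0.75 after cyclic loess and -0.60 with 75th percentile scaling). The Mmp2 call ended with the slide row (adjusted p = 0.0939), with the replicate block (adjusted p = 0.0671) and with 75th percentile scaling (adjusted p = 0.0786).

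**Figure D4:**
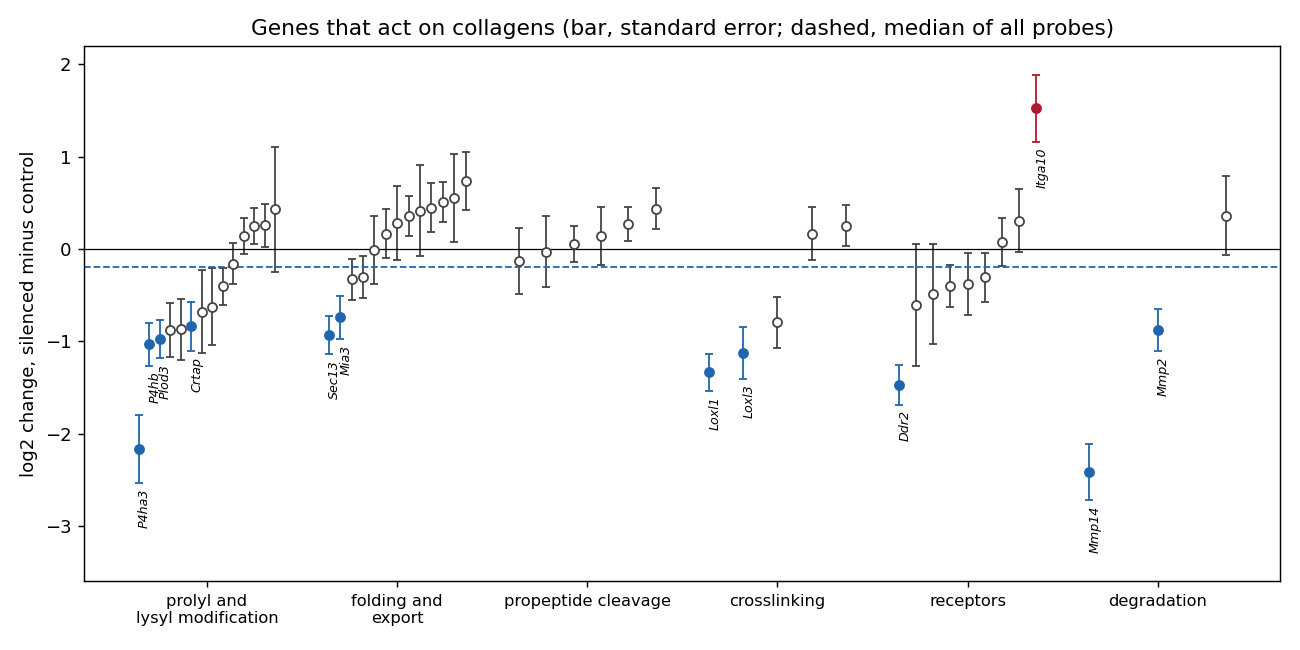
log2 change, silenced minus control, of the brightest tested probe of 50 genes that act on collagens, by role (bar, standard error; filled, adjusted p under 0.05; dashed, median of all probes). The 11 genes lower by their brightest probe lie in every list except propeptide cleavage, and Itga10 is the 1 gene called higher.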

How the data were processed

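Total RNA of 4 control and 4 Pvt1-silenced C2C12 cultures, placed in their groups by the sample titles, was measured on Agilent mouse arrays of 1 colour. The authors deposited scanner files with spot intensity on a linear scale, already background-subtracted and detrended but not normalised between arrays. Per the file headers these came from Feature Extraction 12.0.0.7, while the submitters' processing notes name version 10.7.3.1. A series table of normalised intensity values, deposited by the authors, served as an alternative only, as its scale and centring are not stated beyond what its values show. Detection and outlier marks (score of 0 or 1 per spot) were also used as deposited by the authors.

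Spots not positive and significant were masked, as in the study's methods, and control spots and those marked as outliers (0.47%) were left out here. The log2 of the deposited intensities was quantile normalised, spots of a probe were averaged, and probes with at least 3 values in each group were fitted with limma 3.58.1 in R 4.3.3 on group alone, with Benjamini-Hochberg adjustment over all 28649 tested probes and a threshold of 0.05. On simulated data of this comparison over 28649 probes, 63% of 100 probes changed by 2 and 13% of 100 changed by 1 (log2) were recovered, with 4 false among 80 calls. The simulation changed 200 probes, where 5269 were called lower and 1373 higher in the data. Its adjusted threshold was therefore stricter, and these shares do not give the recovery in the data. A gene was read by its brightest tested probe. Values on each array are given for every called collagen gene and for Col1a1, Col1a2, Col3a1, Col4a1, Col4a2, Col4a5, Col5a1, Col5a2, Col6a1, Col6a2 and Col6a3, and for up to 2 called genes per direction of each list of genes acting on collagens a change is given. The remaining lower genes of those lists, Plod3 and Crtap, the uncalled Serpinh1, Bmp1 and Pcolce, and the genes of those lists with a dimmer probe called lower were named after their values were seen. Where no array of a group had a probe well above background, the fold was given as a bound, taken against the lowest signal well above background on each array.

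The members, classes and lists were chosen with earlier results of these data known, and the tests of differences between pairs of probes were added after the data were seen. Probe coordinates are those of the files (mm9), and whether a probe lay in an exon, an intron or a UTR was not analysed here. Promoter windows are RefSeq's for GRCm38.p6. The labels call the cultures biological replicates, and p-values measure the spread between these cultures. The number of arrays limits the precision. The alternatives were other scalings (75th percentile, cyclic loess, the authors' table), normexp with an offset of 50, other rules on dim spots, a replicate block, the slide row, a robust trended prior, the test with unequal variances that a supplementary legend of the study states for these arrays (called the methods' test), the mean or the most 3′ of a gene's probes, and leaving out each array.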

Additional observations from a re-analysis of the deposited data

Results flagged for a closer look

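Among the 31 groups of 4 values checked for a sample far from the others (Pvt1 and 15 collagen genes), 1 stood out, and chance alone marks about 1 in 20 such groups. The brightest Col1a2 probe read 15.05 in silenced culture 4, while the other silenced cultures lay between 15.32 and 15.35. That array was also the dimmest of the 8, with 51.6% of its spots positive and significant.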

How the results depend on the processing

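Over 332 recomputed values for Pvt1 and the 15 named collagen genes, 289 kept their direction and their side of the threshold, 21 lost and 8 gained a call and 14 changed sign. Pvt1, Col4a1, Col4a2, Col6a2, Col12a1 and Col18a1 kept direction and call in every alternative that gave a value. Col22a1 lost its call in 13 of 20 alternatives and Col9a2 in 6 of 20, both dim. Col6a1 lost it in 2 of 20, the slide row and the methods' test. Each changed sign belonged to a gene not called by its brightest probe. They were Col1a1 (0.041), Col3a1 (0.19), Col5a1 (0.25), Col5a2 (0.21) and Col6a3 (0.33) with 75th percentile scaling, Col5a2 with cyclic loess (0.29), the authors' table (0.26), no masking (0.25) and without silenced culture 4 (0.27), Col1a2 without control culture 3 (-0.053, with -0.053 to 0.13 over the single left-out arrays), and, with the mean of all probes, Col1a2 (-0.17), Col3a1 (0.33), Col5a2 (0.17) and Col6a3 (0.0011).

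The 9 lower collagen probes and 7 lower genes stayed within 1.5 times these counts, at 6 to 10 and 5 to 8. Probes called higher (2) became 9 with 75th percentile scaling, 7 with cyclic loess, 7 with the authors' table, 6 without masking, 1 with the slide row and 1 by the methods' test. Leaving out 1 array gave 1 to 6, the 6 without silenced culture 4. Genes called higher (1) became 6 with 75th percentile scaling and 4 with cyclic loess, the authors' table and no masking, and 1 to 4 without 1 array, the 4 again without silenced culture 4. The median change of collagen genes (-0.29) was 0.15 with 75th percentile scaling, where the median of all probes was 0.16, and -0.43 to -0.21 without 1 array. Of the genes acting on collagens, the 11 lower became 7 with 75th percentile scaling, 5 with the slide row, 6 by the methods' test and 7 to 12 without 1 array (7 without control culture 4). The 1 higher became 13 with 75th percentile scaling, 10 with cyclic loess, 9 with the authors' table and without masking, 2 with normexp and with a robust trended prior, and 0 with well-above-background spots only, with the slide row, by the methods' test and with the mean of all probes. Without 1 array it was 0 to 5, the 0 without control culture 2 and the 5 without silenced culture 4. The cause of these shifts was not tested.

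Same-numbered cultures shared little beyond their number (correlations of their deviations -0.04, 0.19, 0.22 and 0.06). With the replicate block, 9 collagen probes were lower and 2 higher, with Col22a1 no longer called and Col11a2 called, 8 of the genes acting on collagens were lower and 1 higher, and the calls over all probes were 3994 lower and 1023 higher. Signal over background was the limit for dim probes: only 25 of the 36 tested collagen probes were well above background on all 8 arrays.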
